A study of Mus musculus with 4 samples.

Results

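Transcripts of 32 macrophage and myeloid genes were examined in RNA sequencing libraries of β cells sorted from mouse islets. The genes were picked by symbol from the deposited table, where they occupy 33 of 51912 rows because Itgam is listed under 2 identifiers. There are 2 Robo mutant libraries, from mice homozygous for Robo1delta, a deletion allele, and for Robo2flx, a conditional allele, and 2 control libraries that are Robo1+/+ and Robo2+/+. Every animal group was 13 days old and carried 1 copy each of Ucn3-Cre and of the nuclear reporter Rosa26-lsl-H2B-mCherry, and cells were sorted for mCherry. Ucn3-Cre is active in maturing β cells, so Robo2 loss depends on that driver, whereas the Robo1 deletion is not restricted to β cells. Whether the libraries of a genotype came from different animals is not given, so a p-value reflects variation among these 4 libraries, and that variation may be technical.

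Macrophages are resident phagocytes of the islet, where they sit beside β cells and blood vessels. Their identity depends on the transcription factor PU.1, encoded by Spi1, and their survival on the receptor for colony stimulating factor 1. They sense debris and microbes through Fc, scavenger and pattern receptors, make the complement protein C1q, and kill ingested microbes with lysozyme and with the reactive oxygen of NADPH oxidase. None of these genes defines a β cell. Together the members held 0.0152% and 0.0140% of all counts in mutant and 0.0106% and 0.0050% in control libraries.

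Macrophage and myeloid transcripts stood higher in the Robo mutant libraries for most members, but no member passed the main test and the control libraries differed widely from each other. Values are CPM, a gene's count divided by its library's total and put on a common scale by trimmed mean of M-values (TMM) normalization, and changes are log2 Robo mutant over control. Summed over the members, the level was 151 and 147 CPM in Robo mutant libraries 1 and 2, against 107 and 47.3 CPM in control libraries 1 and 2. The ratio of the group means was 1.93. Both mutant libraries thus lay above both controls, and control 2 stood farthest from the others.

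Of the 33 rows, 28 had at least 10 counts in at least 2 libraries and were tested. Among these 28 members, 24 had a log2 change above 0 and 4 below, with a median of 1.12, while 48.7% of all 16517 tested genes were above 0, with a median of -0.01. In 9 members both mutant libraries exceeded both controls, which was true of 16.1% of all tested genes. In 0 members did both mutant libraries lie below both controls, against 20.4% of all genes, and the groups did not overlap in 36.6% of all genes in either direction. By edgeR's quasi-likelihood test with Benjamini-Hochberg adjustment over all tested genes, 0 members had an adjusted p under 0.05, as did 0 genes in all (0%). At an unadjusted p under 0.05 there were 3 members, Cybb, Itgam and Laptm5, all higher, against 1.99% of all tested genes higher, 4.21% lower and 6.21% in either direction. DESeq2 called 2 members, Cybb and Itgam, against 0.914% of all genes. Itgam and Pf4 reached the count minimum in mutant libraries only, so they had to differ. Without such genes, 7 of 26 members had both mutant libraries above both controls, against 15.9% of 15916 genes. Among these 26, 2 had an unadjusted edgeR p under 0.05, against 3.90% of genes, and DESeq2 called 1, against 0.490%. With 2 libraries against 2, the smallest two-sided p of an exact permutation test for a single gene is 0.333.

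**Figure D1:**
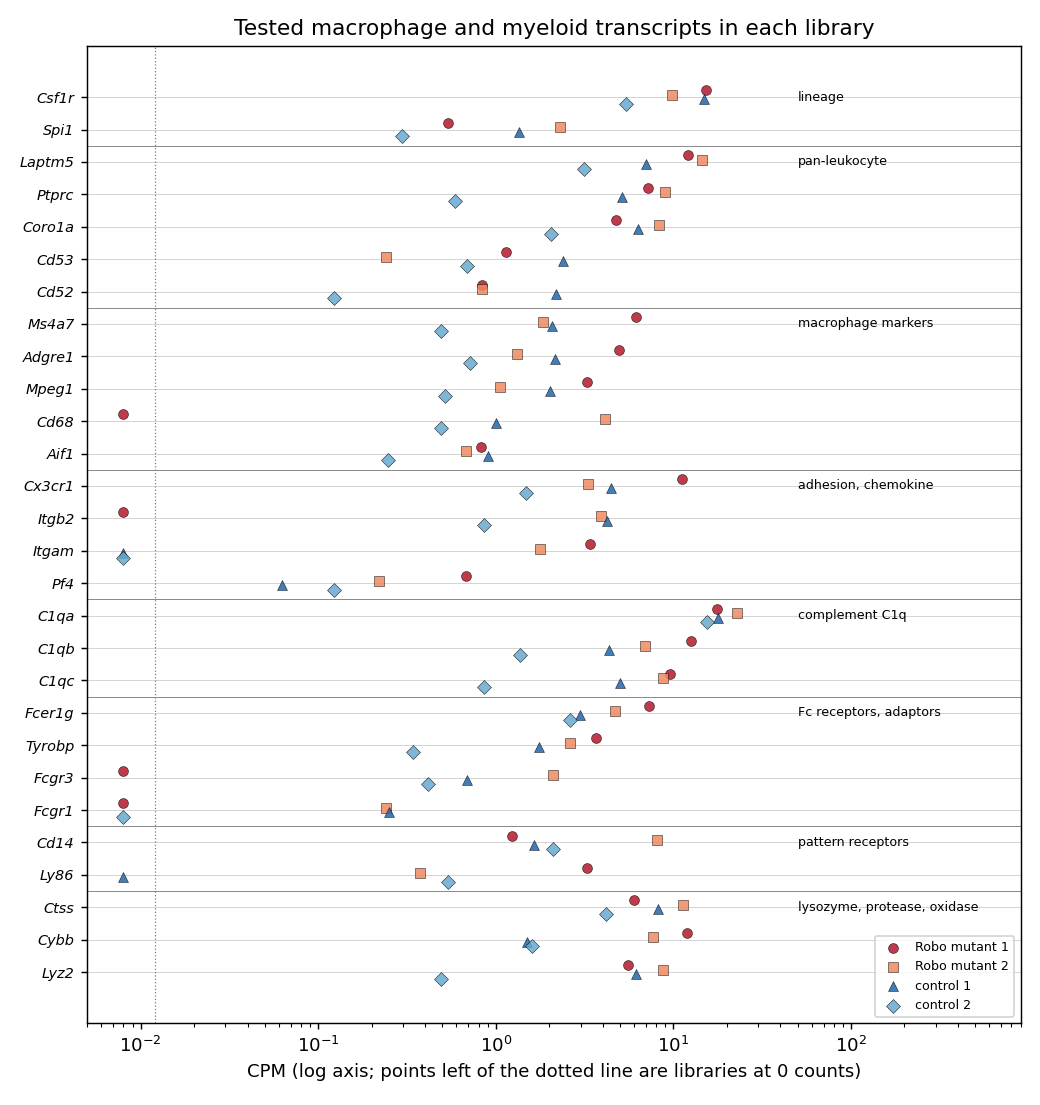
CPM of the 28 tested members (log axis) in each library, with 1 row per gene grouped by role and 1 marker per library; markers left of the dotted line stand for 0 counts. Control 2 (light diamonds) is the leftmost library in 18 rows, and Cybb is the row in which the 2 mutant libraries (11.9 and 7.70 CPM) are most clearly apart from 2 closely placed controls (1.5 and 1.59 CPM).

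The controls lay far apart for most members. Control 2 had the lowest value in 18 of 28 members, ties at 0 not counted for it, against 17.0% of all tested genes, and the highest value in 0 members, against 21.3%. Robo mutant 1 had the highest value in 13 members, Robo mutant 2 in 10 and control 1 in 5, against 27.5%, 28.7% and 22.6% of all tested genes in that order. Both mutant libraries lay above control 2 in 21 of 28 members, against 25.6% of all tested genes, and above control 1 in 10 of 28, against 27.0%. The median log2 difference of the members, at a pseudocount of 0.5 CPM, was 0.24 for mutant 1 over control 1 and 0.46 for mutant 2 over control 1. Set against control 2 it was 1.37 for mutant 1 and 1.42 for mutant 2. Without control 2 the median log2 change of the members was 0.62, and without control 1 it was 2.06. The log2 ratio of summed CPM was 0.48 without control 2 and 1.66 without control 1, with 0.95 over all libraries.

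Most members were low and variable compared with other genes. Per kilobase of exon, the tested members had a median level of 0.906 CPM, against 3.15 CPM for all tested genes with a known length. The 5 tested members above that median of all genes were C1qa (17.7 CPM per kb), C1qb (5.77), Ctss (5.47), Fcer1g (5.04) and Lyz2 (3.97). The median absolute log2 difference between libraries of 1 genotype was 0.76 in mutant and 1.18 in control libraries for the members, against 0.41 in mutant and 0.24 in control libraries for all tested genes. In the 22 members without a zero, the highest library exceeded the lowest by 1.49-fold in C1qa and by up to 17.7-fold in Cd52 and Lyz2. In bulk RNA from sorted cells, fewer cells of a type and less RNA per cell cannot be told apart.

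Library totals were 49593712 and 47788000 counts in the mutant and 48217557 and 38886129 counts in the control libraries. The β-cell label held, since all 10 defining genes checked, Ins1, Ins2 and Ucn3 among them, were present in every library and summed to 227525 and 160290 CPM in mutant and 231397 and 197648 CPM in control libraries. The targeted genes checked the genotype labels. Robo1 was at 22.3 and 21 CPM in mutant libraries, against 48.5 and 104 CPM in control libraries, and Robo2 at 32.7 and 25.6 CPM, against 75.3 and 118 CPM. Their log2 changes were -1.82 ± 0.40 and -1.73 ± 0.28 (SE, n = 2 each), with an edgeR adjusted p of 0.680 for both and DESeq2 adjusted p of 0.00186 and 1.99e-05. Gene-level counts also cover exons outside a deletion, but the source of the Robo1 and Robo2 counts left in mutant libraries was not tested.

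Cybb had the clearest difference. It encodes gp91phox, the membrane subunit of the phagocyte NADPH oxidase that passes electrons to oxygen (ENSMUSG00000015340, chromosome X, 9435252 to 9487771, minus strand, GRCm38). It stood at 11.9 and 7.70 CPM in mutant libraries and at 1.5 and 1.59 CPM in control libraries. Every mutant value was at least 4.83 times every control value, and the controls nearly coincided. The mean was 9.79 ± 2.96 CPM in mutant and 1.55 ± 0.0642 CPM in control libraries (SD, n = 2 each), 6.32-fold higher. In edgeR the log2 change was 2.66 ± 0.47 (SE) with an unadjusted p of 0.00351 and an adjusted p of 0.680. DESeq2 gave an adjusted p of 0.00162, whereas over the other settings tried the adjusted p of Cybb reached 1.00. Its log2 change stayed between 2.31 and 2.94 in those settings.

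The partners of Cybb in the oxidase did not share one pattern. Cyba, the gene of the other membrane subunit, was at 1.60 and 5.72 CPM in mutant and 2.90 and 1.28 CPM in control libraries, and the groups overlapped. Ncf1, which encodes the organizer subunit p47phox, was at 0.240 and 0.0660 CPM in mutant and 2.30 and 0.810 CPM in control libraries, with both mutant libraries below both controls (log2 change -3.32, edgeR unadjusted p = 0.0525, adjusted p = 0.817). Ncf4, the gene of p40phox, was at 0.660 and 0.594 CPM in mutant libraries and at 0.0209 and 0 CPM in control libraries (edgeR unadjusted p = 0.0223, adjusted p = 0.680), and it too reached the count minimum in the mutant libraries only, so it had to differ. Cyba and Ncf4 thus had log2 changes above 0 and Ncf1 below, and none of these 3 passed edgeR or DESeq2.

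Itgam, the gene of the integrin chain CD11b that marks myeloid cells, was seen in mutant libraries alone. Its main identifier (ENSMUSG00000030786, chromosome 7, 128062640 to 128118491, plus strand, GRCm38) had 170 and 81 counts in mutant libraries, or 3.40 and 1.78 CPM, and 0 counts in both controls. With 3 counts per library as the floor, the level was at least 38.0-fold higher in mutant libraries. The edgeR p was 0.00444 unadjusted and 0.680 adjusted, and DESeq2 gave an adjusted p of 0.00163, with adjusted p up to 1.00 over the other settings. Itgam met the count minimum through the mutant libraries only, so it had to differ. The 21 tested genes at 0 in both controls all had an unadjusted edgeR p under 0.05, and DESeq2 called 6 of them. In the other direction, 304 tested genes were at 0 in both mutant libraries. All of these had an unadjusted edgeR p under 0.05, and DESeq2 called 57. The second identifier (ENSMUSG00000108596, named Gm49368 in GENCODE M21) shares 3450 exonic bases with Itgam on the same strand and had 0 counts in every library.

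The transcript of the chain that pairs with CD11b had another order. Itgb2, encoding the shared β2 integrin chain CD18, was at 0 and 3.89 CPM in mutant and 4.22 and 0.859 CPM in control libraries. So mutant 1 had Itgam without Itgb2, both controls had Itgb2 without Itgam, and mutant 2 had both. Itgax, encoding the related chain CD11c of dendritic cells and some macrophages, was at 0 and 3.08 CPM in mutant and 3.93 and 0.883 CPM in control libraries, an order like that of Itgb2.

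Promoter sequence is shown for 4 members, the 2 called by DESeq2 and the 2 C1q genes whose groups did not overlap, because PU.1 is the factor myeloid promoters are best known for. Each run is the 250 bases before the start in RefSeq (GRCm38.p6), 5′ to 3′ on the gene's strand, with GAGGAA on either strand, a core of sites bound by PU.1 and its ETS relatives, in capitals. The Cybb window is chrX:9469325-9469574 (minus), that of Itgam chr7:128062390-128062639 (plus), that of C1qb chr4:136886201-136886450 (minus) and that of C1qc chr4:136892915-136893164 (minus).
Cybb: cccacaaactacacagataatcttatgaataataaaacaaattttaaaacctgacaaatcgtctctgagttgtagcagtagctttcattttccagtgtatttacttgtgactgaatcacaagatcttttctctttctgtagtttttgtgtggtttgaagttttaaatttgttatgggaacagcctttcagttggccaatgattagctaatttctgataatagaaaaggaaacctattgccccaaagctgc
Itgam: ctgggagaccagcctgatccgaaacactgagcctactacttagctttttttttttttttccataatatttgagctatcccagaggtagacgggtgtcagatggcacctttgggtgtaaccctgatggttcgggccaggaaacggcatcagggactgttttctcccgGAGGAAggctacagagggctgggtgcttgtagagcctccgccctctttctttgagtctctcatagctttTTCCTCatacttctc
C1qb: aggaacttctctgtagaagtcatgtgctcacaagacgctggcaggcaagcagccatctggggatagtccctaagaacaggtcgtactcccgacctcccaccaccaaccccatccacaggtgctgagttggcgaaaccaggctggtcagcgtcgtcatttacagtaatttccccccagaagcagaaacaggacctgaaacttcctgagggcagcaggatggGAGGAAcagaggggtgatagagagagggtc
C1qc: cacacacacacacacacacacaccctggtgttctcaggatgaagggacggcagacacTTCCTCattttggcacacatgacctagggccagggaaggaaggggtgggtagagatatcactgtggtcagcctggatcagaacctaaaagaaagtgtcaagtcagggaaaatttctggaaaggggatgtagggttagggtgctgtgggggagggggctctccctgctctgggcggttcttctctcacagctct
The windows hold 0 matches in Cybb, 2 in Itgam, 1 in C1qb and 1 in C1qc. RefSeq promoters were matched for 23 of the 32 members, of which 14 (60.9%) had GAGGAA in this window, against 25.9% of 27025 genes. The letters TATAAA, those of the TATA box, were present in 3 of the 23 members (13.0%), against 14.3% of genes. A match is a string of letters and not a measured binding site. Only GAGGAA was searched for PU.1, so 0 matches does not mean that a window holds no PU.1 site.

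The complement genes C1qa, C1qb and C1qc encode the 3 chains of C1q, which starts the classical complement pathway, and lie within 18.7 kb of chromosome 4 (136880129 to 136898803, GRCm38). C1qb was at 12.5 and 6.91 CPM in mutant and 4.35 and 1.37 CPM in control libraries. C1qc was at 9.52 and 8.71 CPM in mutant and 5.01 and 0.859 CPM in control libraries. For both genes the mutant libraries lay above both controls, and control 2 was far below control 1. The log2 change was 1.76 ± 0.73 for C1qb (unadjusted p = 0.0667, adjusted p = 0.859 in edgeR) and 1.63 ± 0.90 for C1qc (unadjusted p = 0.137, adjusted p = 0.922 in edgeR; SE, n = 2 each).

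C1qa behaved differently from its neighbours. It had the highest level of all members per kilobase, 17.7 CPM per kb, and was at 17.5 and 22.9 CPM in mutant and 17.9 and 15.4 CPM in control libraries. These 4 values overlapped between genotypes and spanned 1.49-fold, the narrowest range of the members. The log2 change was 0.28 ± 0.25 (SE, n = 2 each; edgeR adjusted p = 0.992). On the scale of CPM per kb, C1qa exceeded C1qb by 1.47-fold in mutant 1 and 3.46-fold in mutant 2, and by 4.30-fold in control 1 and 11.7-fold in control 2. The chains therefore did not keep one ratio across libraries, although 1 complement molecule uses equal numbers of each. Without C1qa, the other members summed to 133 and 124 CPM in mutant and 89.2 and 31.9 CPM in control libraries.

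**Figure D2:**
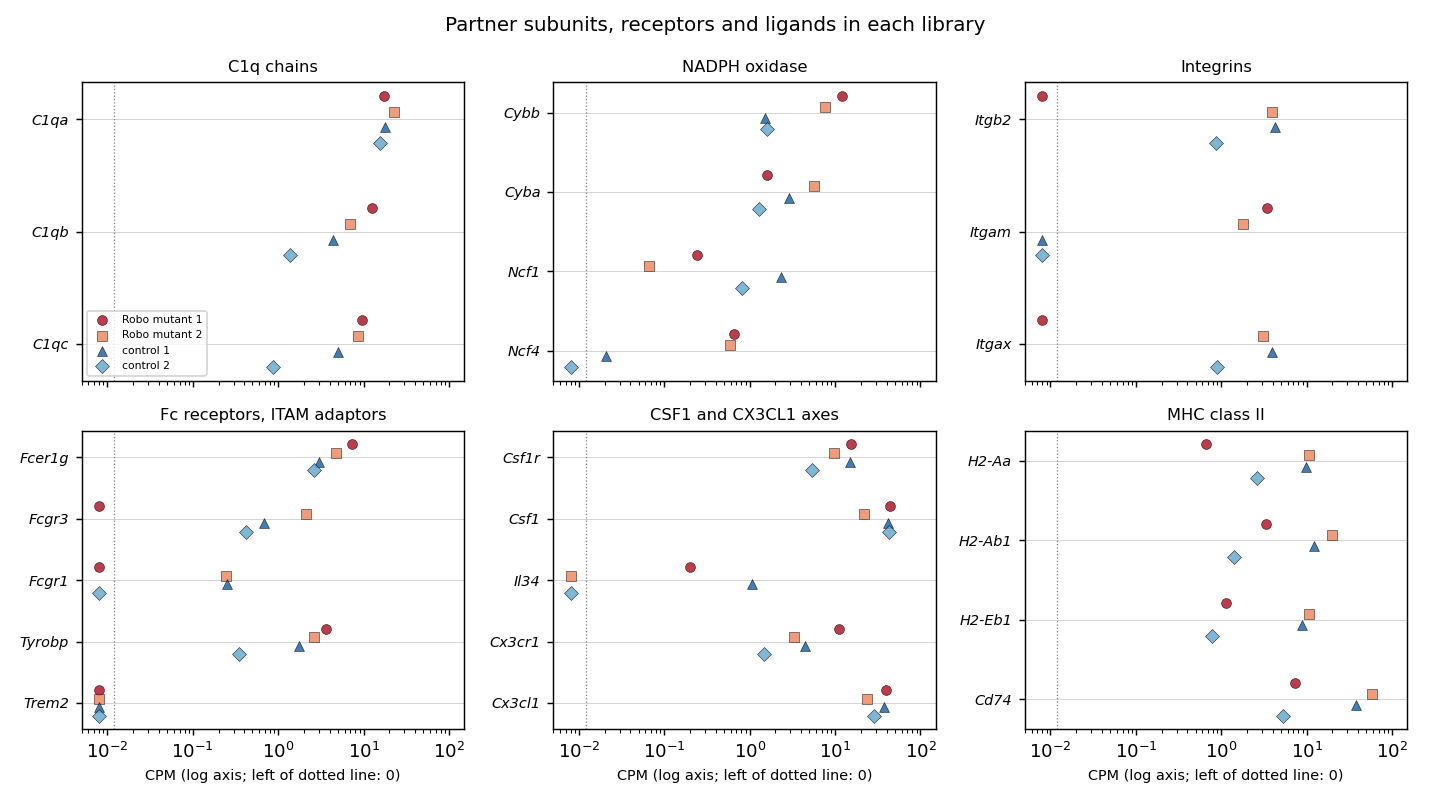
CPM (log axis) of genes whose products work together, with 1 marker per library and markers left of each dotted line at 0 counts. Cybb and Ncf4 are higher in both mutant libraries while Ncf1 is lower; Itgam is at 0 in both controls while Itgb2 is at 0 in mutant 1; and the 4 MHC class II genes drawn are high in mutant 2 and control 1 (Cd74 at 57.8 and 37.4 CPM) and low in mutant 1 and control 2 (7.26 and 5.28 CPM).

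Among pan-leukocyte genes, Laptm5 had the next smallest p after Cybb and Itgam. It encodes a lysosomal membrane protein of blood cells (ENSMUSG00000028581, chromosome 4, 130913125 to 130936141, plus strand, GRCm38). Laptm5 was at 12.0 and 14.4 CPM in mutant and 7.0 and 3.14 CPM in control libraries, with no overlap. The log2 change was 1.38 ± 0.50 (SE, n = 2 each), with an unadjusted p of 0.0448 and an adjusted p of 0.795 in edgeR. Ptprc, the gene of the leukocyte phosphatase CD45, was at 7.16 and 8.93 CPM in mutant and 5.16 and 0.589 CPM in control libraries. There too the groups did not overlap, but mutant values were close to control 1 (log2 change 1.48, edgeR adjusted p = 0.965).

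The other pan-leukocyte members overlapped between genotypes. Coro1a, for the actin regulator coronin 1A, was at 4.74 and 8.31 CPM in mutant and 6.33 and 2.04 CPM in control libraries. Cd52, for a small surface glycoprotein, was at 0.840 and 0.836 CPM in mutant and 2.17 and 0.123 CPM in control libraries. The tetraspanin gene Cd53 was at 1.14 and 0.242 CPM in mutant and 2.40 and 0.687 CPM in control libraries. Cd52 and Cd53 had log2 changes of -0.45 and -1.16 and were 2 of the 4 members below 0. Some reads of Cd52 and Coro1a may belong to Crybg2 and Bola2, which overlap their exons by 172 and 26 bases on the opposite strand, since the chemistry does not mark strand.

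Adaptors of Fc and related receptors carry an immunoreceptor tyrosine-based activation motif (ITAM) and signal for several receptors. Fcer1g, the gene of the common Fc receptor γ chain, was at 7.32 and 4.71 CPM in mutant and 2.97 and 2.63 CPM in control libraries. Tyrobp, encoding DAP12, was at 3.66 and 2.62 CPM in mutant and 1.75 and 0.344 CPM in control libraries. Both adaptors were higher in both mutant libraries, and only Fcer1g had closely placed controls. Their log2 changes were 1.10 ± 0.51 and 1.58 ± 1.02 (SE, n = 2 each), with edgeR adjusted p of 0.888 and 0.948.

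The receptors that use these adaptors were scarce. Fcgr3, encoding the low-affinity IgG receptor CD16, was at 0 and 2.09 CPM in mutant and 0.689 and 0.417 CPM in control libraries. Fcgr1, for the high-affinity IgG receptor CD64, was at 0 and 0.242 CPM in mutant and 0.251 and 0 CPM in control libraries, which is 11 and 12 counts in the libraries that had any. Trem2, a lipid receptor that signals through DAP12, had 0 counts in all 4 libraries, which allows up to 3 counts in each.

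The lineage genes overlapped between genotypes. Csf1r, the receptor gene on which macrophages depend, was at 15.2 and 9.76 CPM in mutant and 14.9 and 5.42 CPM in control libraries, and mutant 1 and control 1 nearly coincided (log2 change 0.30, edgeR adjusted p = 1.00). Its exons share 873 bases with Hmgxb3 on the opposite strand, and that gene had 2236 to 2924 counts in mutant and 2126 to 2936 counts in control libraries, so reads in the shared bases cannot be told apart. Spi1 was at 0.540 and 2.31 CPM in mutant and 1.36 and 0.294 CPM in control libraries. Of the ligands of CSF1 receptor, Csf1 was at 44.1 and 22.1 CPM in mutant and 41.6 and 43.3 CPM in control libraries, and Il34 was at 0 in mutant 2 and control 2.

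Markers of tissue macrophages were highest in mutant 1 in 3 of 5 cases. Adgre1, the F4/80 antigen gene, was at 4.96 and 1.32 CPM in mutant and 2.15 and 0.712 CPM in control libraries. Ms4a7, a membrane-spanning gene of tissue macrophages, was at 6.14 and 1.85 CPM in mutant and 2.07 and 0.491 CPM in control libraries, and Mpeg1, for the pore-forming perforin 2, at 3.26 and 1.06 CPM in mutant and 2.03 and 0.515 CPM in control libraries. In these 3 genes the order was mutant 1, control 1, mutant 2 and control 2, so genotypes alternated. Cx3cr1, the fractalkine receptor, followed the same order at 11.2 and 3.32 CPM in mutant and 4.47 and 1.47 CPM in control libraries, while its ligand gene Cx3cl1 spanned 23.6 to 39.6 CPM in mutant and 28.9 to 37.9 CPM in control libraries.

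Another group of members was highest in mutant 2. Cd68, a lysosomal macrophage marker, was at 0 and 4.09 CPM in mutant and 1.00 and 0.491 CPM in control libraries. Cd14, the coreceptor for bacterial lipopolysaccharide, was at 1.24 and 8.03 CPM in mutant and 1.63 and 2.11 CPM in control libraries. Mutant 1 was the lowest library for both, although it was the highest for Adgre1 and Ms4a7. The 4 tested members at 0 in mutant 1 were Cd68, Itgb2, Fcgr1 and Fcgr3, and 0 tested members were at 0 in mutant 2. In the control libraries 2 tested members were at 0 each, Itgam and Ly86 in control 1 and Itgam and Fcgr1 in control 2.

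Remaining tested members are given by value. Lyz2, the macrophage lysozyme gene, was at 5.56 and 8.69 CPM in mutant and 6.14 and 0.491 CPM in control libraries. Ctss, for the protease cathepsin S that trims the invariant chain in antigen presentation, was at 5.98 and 11.3 CPM in mutant and 8.17 and 4.20 CPM in control libraries (log2 change 0.49 ± 0.55, SE, n = 2 each; edgeR adjusted p = 1.00), and its level over all libraries was 5.47 CPM per kb. Both genes overlapped between genotypes, with control 2 lowest.

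The low members Aif1, Ly86 and Pf4 complete the tested set. Aif1, for the calcium-binding protein IBA1, was at 0.820 and 0.682 CPM in mutant and 0.898 and 0.245 CPM in control libraries. Ly86, encoding MD-1, a partner of the receptor RP105, was at 3.28 and 0.374 CPM in mutant and 0 and 0.540 CPM in control libraries. Pf4, the chemokine platelet factor 4, was at 0.680 and 0.220 CPM in mutant and 0.0627 and 0.123 CPM in control libraries (log2 change 2.25 ± 1.27, SE; edgeR adjusted p = 0.922). Pf4 separated the genotypes, but on 3 to 34 counts per library, and it reached the count minimum in the mutant libraries only.

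Mrc1, Msr1, Trem2 and Lyz1 were not tested. Mrc1, the mannose receptor of scavenging macrophages, had 27 counts in control 1 and 0 elsewhere, and the scavenger receptor gene Msr1 had 7 counts in control 2 and 0 elsewhere. Trem2 and Lyz1 had 0 counts in all libraries. Lyz1 and Lyz2 transcripts are 91.95% identical in GENCODE M21, so reads can be divided between them and the values of both are uncertain.

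**Figure D3:**
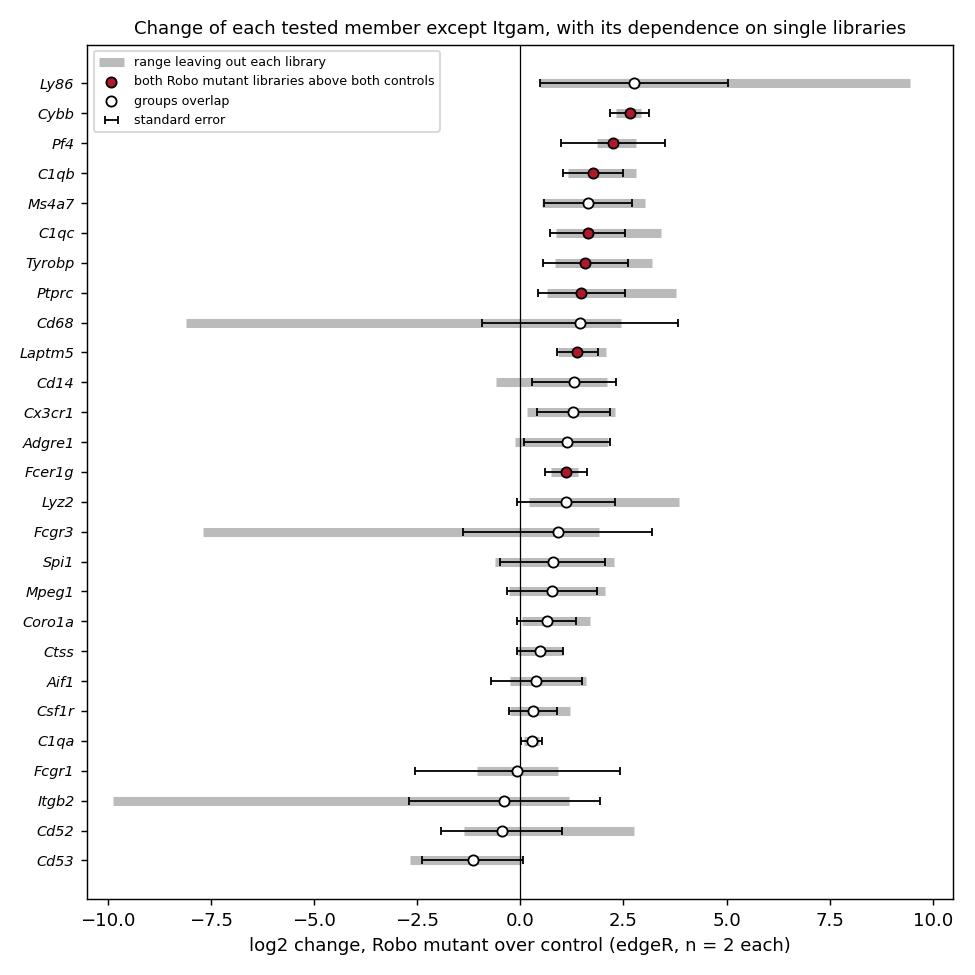
Log2 change of 27 tested members, Robo mutant over control (edgeR, points), with its standard error (thin bars, n = 2 each) and the range of the estimate when single libraries are left out (grey bands, from 4 fits a gene, or from 2 for Pf4 and Fcgr1, which missed the count minimum in the others); filled points mark members whose mutant libraries both exceed both controls. Itgam is omitted because its controls are at 0; The band of Cybb runs from 2.31 to 2.94, and 13 bands cross 0.

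Genes that work with the members were read from lists chosen with earlier results of these data known. In each list 0 genes passed edgeR. Of 10 tested genes of macrophage subsets and scavenging, 7 were higher and 3 lower, with a median log2 change of 0.69. Of all tested genes, 48.7% were higher. Tlr2, the receptor for bacterial lipoproteins, was at 76.5 and 71.9 CPM in mutant and 33.8 and 46.2 CPM in control libraries (log2 change 0.89 ± 0.20, SE, n = 2 each; edgeR adjusted p = 0.680, DESeq2 adjusted p = 0.0287). In each library Tlr2 was above the highest member, which was at 17.5 and 22.9 CPM in mutant and 17.9 and 15.4 CPM in control libraries. Stab1 and Lyve1, scavenger and hyaluronan receptor genes, had log2 changes of 1.11 and 0.33. The 3 lower genes were C3ar1 (-1.58), Itgax (-0.64) and Axl (-0.61). The resident-macrophage genes Cd163, Folr2, Timd4, Marco and Vsig4 had 0 counts in all 4 libraries.

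Among 10 myeloid transcription factor genes, 8 were higher and 2 lower, with a median log2 change of 0.26. Of all tested genes, 48.7% were higher. Ikzf1 (0.05) and Irf8 (0.08) were counted as higher though near no change. Cebpb, for a factor of inflammatory gene expression, was at 70.8 and 96.4 CPM in mutant and 44.3 and 38.4 CPM in control libraries (log2 change 1.02 ± 0.21, SE, n = 2 each; edgeR adjusted p = 0.680, DESeq2 adjusted p = 0.00938). Runx1, a factor of blood cell development, and Nr1h3, the sterol sensor LXRα, had log2 changes of 1.80 and 0.41. In the list of ITAM and leukocyte signalling 11 of 15 were higher and 4 lower, with a median log2 change of 0.42. Vav1 (0.01) and Plcg2 (0.045) were counted as higher though near no change. Inpp5d (2.14), Nckap1l (1.52) and Fermt3 (1.74) had the smallest p, all above an edgeR adjusted p of 0.9.

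Growth factor and chemokine genes for myeloid cells were divided, 7 of 16 being higher and 9 lower. Tnf, the gene of tumour necrosis factor, was at 7.60 and 5.41 CPM in mutant and 1.36 and 0.221 CPM in control libraries (log2 change 3.03 ± 1.03, SE, n = 2 each; edgeR unadjusted p = 0.0370, adjusted p = 0.764). The neutrophil chemokine gene Cxcl2 was at 2.86 and 4.09 CPM in mutant and 1.73 and 0.221 CPM in control libraries. Cd200, whose product restrains macrophages through its receptor, was at 68.8 and 79.9 CPM in mutant and 93.6 and 91.6 CPM in control libraries (log2 change -0.32, edgeR adjusted p = 0.877).

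Genes of MHC class II, which macrophages and dendritic cells use to present antigen, did not separate by genotype. The 7 genes summed to 13.5 and 104 CPM in mutant and 74.7 and 14 CPM in control libraries, so the sum was high in mutant 2 and control 1 and low in mutant 1 and control 2. H2-DMb1, a subunit gene of the peptide-loading protein DM, went against this, with 23 counts in control 2 and 0 elsewhere, and H2-DMa was at 1.14 and 3.54 CPM in mutant and 6.16 and 3.29 CPM in control libraries. Of 6 tested, 4 were higher and 2 lower, with H2-DMa, Ciita and H2-Ab1 (log2 changes -1.01, 1.98 and 0.77) at the smallest p. Mutant 1, with the highest Csf1r, Cx3cr1 and Adgre1, thus had the lowest H2-Aa, at 0.660 CPM against 10.7 CPM in mutant 2 and 9.86 and 2.63 CPM in control libraries.

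Markers of other blood cells were sparser. Neutrophil markers, including S100a8 and S100a9, had 8 of 11 genes at 0 in all libraries and summed to 0.0200 and 0 CPM in mutant and 0 and 0.123 CPM in control libraries. Erythroid markers summed to 0 and 0.308 CPM in mutant and 0.146 and 0.368 CPM in control libraries. Mast cell markers were at 0 in 6 of 7 cases, the exception being Kit, a receptor also known in islet cells, at 22.2 and 27.2 CPM in mutant and 16.0 and 14.3 CPM in control libraries. Lymphocyte markers summed to 11.4 and 21.2 CPM in mutant and 23.0 and 12.3 CPM in control libraries, and 4 of 7 tested were higher and 3 lower. Dendritic cell markers summed to 6.42 and 7.59 CPM in mutant and 6.60 and 4.54 CPM in control libraries, with 1 of 3 tested higher and 2 lower.

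Among other non-β markers, acinar and stromal sums moved with single libraries, while endothelial sums did not overlap between genotypes. Acinar genes summed to 2523 and 44927 CPM in mutant and 5037 and 547 CPM in control libraries. Stromal genes summed to 1097 and 14.7 CPM in mutant and 2418 and 705 CPM in control libraries, and endothelial genes to 8.18 and 6.62 CPM in mutant and 13.1 and 22.6 CPM in control libraries. All 14 acinar genes had a log2 change above 0, with a median of 3.05, while 9 of 10 stromal genes were below 0. The 5 tested endothelial genes were all below 0. For 2 of these 5 the genotypes did not overlap, and 0 had an unadjusted edgeR p under 0.05. Control 2 was the lowest library for acinar genes as well as for the myeloid members, but mutant 1, as high as mutant 2 for the myeloid members, was below control 1 for acinar genes. The part of carried-over cells or free RNA in the myeloid values was not tested.

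**Figure D4:**
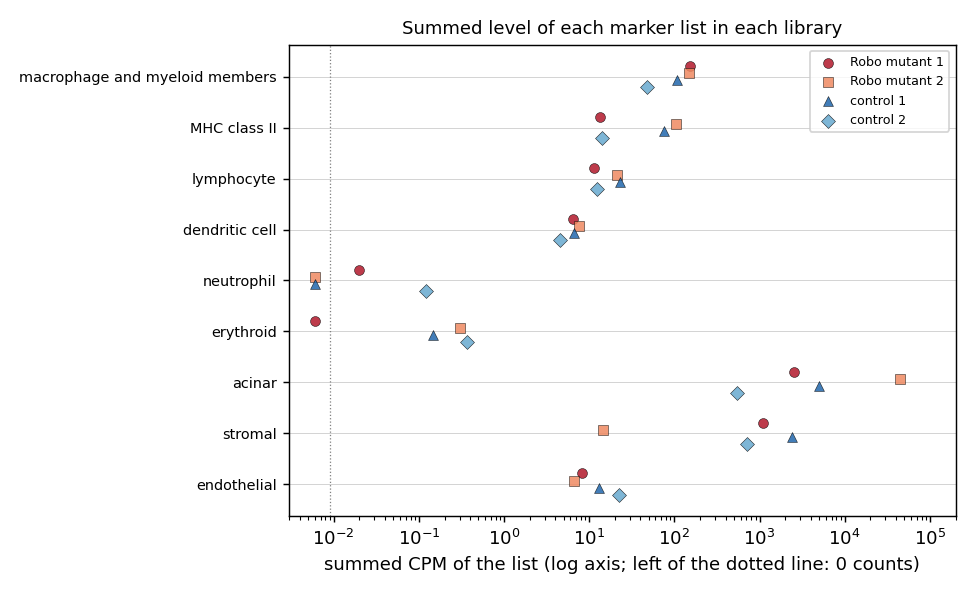
Summed CPM (log axis) of the macrophage and myeloid members and of 8 marker lists in each library, with markers left of the dotted line at 0 counts. The members sum to 151 and 147 CPM in the mutant and 107 and 47.3 CPM in the control libraries, a narrower spread than that of acinar genes, which reach 44927 CPM in mutant 2 and 547 CPM in control 2.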

How the data were processed

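Estimated counts per gene were deposited by the authors as whole numbers in 1 table. The submitters' processing notes name GRCm38, RSEM 1.3.0, STAR 2.5.3a, edgeR 3.16.5 and bcl2fastq 2.20.0.422; which step each served is not stated there. That deposited table is called normalized by its name, but totals differ and low whole numbers show no gaps, so they were handled like RSEM's expected counts; an earlier rescaling would make totals and floors approximate. Per the labels' protocols, cDNA came from SMART-Seq v4 and Nextera XT.

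Counts were rounded, genes kept if 2 or more libraries had 10 or more counts, and Robo mutant compared with control (n = 2 each) by glmQLFit and glmQLFTest of edgeR 4.0.16 in R 4.3.3 after TMM scaling, two-sided, at an adjusted p of 0.05. DESeq2 1.42.0 and voom of limma 3.58.1 were alternatives. The code was tested on simulated data. GENCODE M21 (GRCm38) matched 51633 of 51912 identifiers and gave positions and merged exon lengths. Floors of 3 counts cover counting error only; reads carry no molecular identifiers. Columns of other samples numbered 0.

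The members and lists were chosen with earlier results of these data known. Named were Robo1, Robo2, all members, full statistics for the 8 members of smallest p, the 4 of highest level per length and those DESeq2 called, and up to 3 genes of smallest p from each pathway list. Some genes of these lists are not reported here. The counts without genes that reached the count minimum in 1 genotype only were added after seeing the data.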

Additional observations from a re-analysis of the deposited data

How the results depend on the processing

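No paired analysis was possible because the labels give no shared replicate numbers. Cybb kept its direction in every fit run; the direction of Itgam was fixed by its entry into the test, which fits without a mutant library could not include. DESeq2 called 151 genes and 2 members, against 0 and 0 in edgeR with TMM, RLE factors, column totals or either other filter, and 0 and 0 with limma voom. Leaving out each library gave 0 to 1 genes and 0 members past the threshold. The number of members above 0 was 23 or 24 under the other settings and 17 (of 25 tested, without Robo mutant 2) to 27 (of 27 tested, without control 1) when a library was left out. Their median log2 change was 0.62 to 2.06 and the log2 ratio of summed CPM 0.48 to 1.66, both lowest without control 2 and highest without control 1.

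Under limma voom the log2 change turned for Cd52 (0.48), Cd68 (-2.04) and Fcgr3 (-2.10); the cause was not tested. Leaving out libraries turned 13 of 28 members, with 2 fits rather than 4 for Fcgr1. The estimates ran from -9.88 to 1.18 for Itgb2, -1.37 to 2.75 for Cd52, -0.61 to 2.27 for Spi1, -0.12 to 2.14 for Adgre1, -1.04 to 0.90 for Fcgr1, -8.12 to 2.45 for Cd68 and -0.26 to 1.60 for Aif1. They ran from -0.25 to 1.21 for Csf1r, -0.047 to 1.05 for Ctss, -2.66 to 0.0089 for Cd53, -0.27 to 2.06 for Mpeg1, -0.59 to 2.10 for Cd14 and -7.69 to 1.91 for Fcgr3. With 1 library left in a genotype, it is assumed to vary like the pair in the other. Some members were low, and 5 of 28 averaged under 1 CPM. A library was at 0 counts for 6 of 28 (21.4%), against 12.8% of all tested genes. Genes with any count numbered 17751 and 17937 in mutant and 19919 and 20918 in control libraries, although control 2 had the smallest total. The part of sequencing depth, or of this difference in detected genes, in the zeros was not tested.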

Other observations

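Several leukocyte transcripts outside the members appeared in 1 library almost alone, and these are named because of that pattern, after their values were seen. In Robo mutant 1, Xcr1, a chemokine receptor gene of cross-presenting dendritic cells, was at 2.94 CPM, against 0 CPM in Robo mutant 2 and 0.0627 and 0 CPM in control libraries. In Robo mutant 2, C5ar1, the receptor gene for complement fragment C5a, was at 3.17 CPM with 0 counts in the other 3 libraries, and the β-glucan receptor gene Clec7a was at 1.17 CPM with 0 counts in the other 3. Siglech, a marker of plasmacytoid dendritic cells, was at 0 and 2.13 CPM in mutant and 0 and 0.0491 CPM in control libraries.

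T-cell receptor complex genes were likewise uneven. Cd3g was at 2.82 and 0 CPM in mutant and 0.585 and 0 CPM in control libraries, and Cd3e at 1.20 and 0 CPM in mutant and 0.543 and 0.0736 CPM in control libraries. Cd3d went the other way, at 0 in both mutant libraries and at 0.313 and 0.0491 CPM in control libraries. Cd2, an adhesion gene of T cells, had 0 counts in both mutant libraries and was at 1.32 and 0.344 CPM in control libraries. Cd2 reached the count minimum in the control libraries only, so it had to differ. It was among 304 tested genes at 0 in both mutant libraries, all with an unadjusted edgeR p under 0.05. Cd79a, a B-cell receptor signalling gene, was at 5.96 and 16.1 CPM in mutant and 11.5 and 9.82 CPM in control libraries.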
